A study of Arabidopsis thaliana with 16 samples.

Results

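The last step of the stomatal lineage, in which a guard mother cell (GMC) divides once and its daughters mature into a pair of guard cells (GC), was examined through the accessibility of chromatin in tagged nuclei. The comparison uses 6 of the 16 libraries of the series, 3 from the GC line and 3 from the GMC line, over all 65351 transposase hypersensitive sites (THSs). The libraries were taken by their labels alone. A THS is a stretch of DNA that the Tn5 transposase can reach, and each insertion into it is a cutcount. All libraries came from 3-day-old Arabidopsis thaliana Col-0 seedlings grown under continuous light. Both lines carried a biotin ligase under the ACT2 promoter and a nuclear tagging fusion (NTF), made of the WPP nuclear envelope domain, a red fluorescent protein and a biotin acceptor peptide, so that tagged nuclei could be bound to streptavidin beads from extracts of whole seedlings. In the GC line the fusion was driven by the promoter of GC1 (AT1G22690), which is active in mature guard cells. In the GMC line it was driven by the promoter of FAMA (AT3G24140), active in GMCs that are turning into guard cells. Earlier states named below are the protoderm (Proto, AtML1 promoter), meristemoid mother cells (MMC, SPCH promoter) and meristemoids (M, MUTE promoter). Each state is represented by a line of its own, so cell state and line cannot be told apart.

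FAMA is a basic helix-loop-helix (bHLH) factor that, with its partner SCREAM (SCRM), ends the divisions of the lineage and starts guard cell differentiation. The MYB factors FLP and MYB88 restrict the GMC to a single symmetric division through cell cycle genes such as CDKB1;1. The mature guard cell is known for its ion channels and pumps, for its responses to abscisic acid, carbon dioxide and blue light, and for turgor changes that open and close the pore.

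The values are cutcounts per THS divided by a size factor of each library, called scaled cutcounts. Total cutcounts on THSs, recovered by dividing the values by the step between them, lay between 5485785 and 8452825 in the GC libraries and between 5015251 and 7593630 in the GMC libraries. Replicates correlated across THSs on the log2 scale with Pearson's r between 0.92 and 0.94 in GC and between 0.91 and 0.94 in GMC. How far replicates differed beyond sampling noise was not established. The ratio of the 90th to the 10th percentile of THS levels, a measure of how far strong sites stand above weak ones, was 7.0, 6.23 and 8.31 in GC libraries and 5.90, 6.23 and 6.04 in GMC libraries (two-sided exact permutation test, p = 0.1, the smallest p that 3 against 3 libraries allow).

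Of 65351 THSs, 76 differed between GC and GMC at an adjusted p below 0.05 (limma, Benjamini-Hochberg), which is 0.116% of those tested. Of these, 67 were higher in GC (0.103%) and 9 were lower in GC (0.0138%). Of the 76, 9 kept their call in every fit that left out 1 library. The count was 11 without GC replicate 1, 837 without GC replicate 2, 31 without GMC replicate 1 and 16 without GMC replicate 3. Scaling by total cutcounts gave 23 higher and 10 lower. With cyclic loess normalization the split was 15 higher and 28 lower, and with quantile normalization it was 18 higher and 16 lower, so the excess of higher calls depended on the scaling. The 3 GC libraries did not overlap the 3 GMC libraries at 14.8% of all THSs, with GC higher at 8.61% and lower at 6.15%. An absolute log2 difference of at least 1 was seen at 96 THSs, of which 14 passed the test. The median half-width of the 95% interval of a log2 difference was 0.44, and no called difference was under 0.63. Smaller differences were not called in this fit, which does not show that they are absent. In bulk nuclei, a site that is open in fewer nuclei and a site with fewer insertions per nucleus cannot be told apart.

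**Figure D1:**
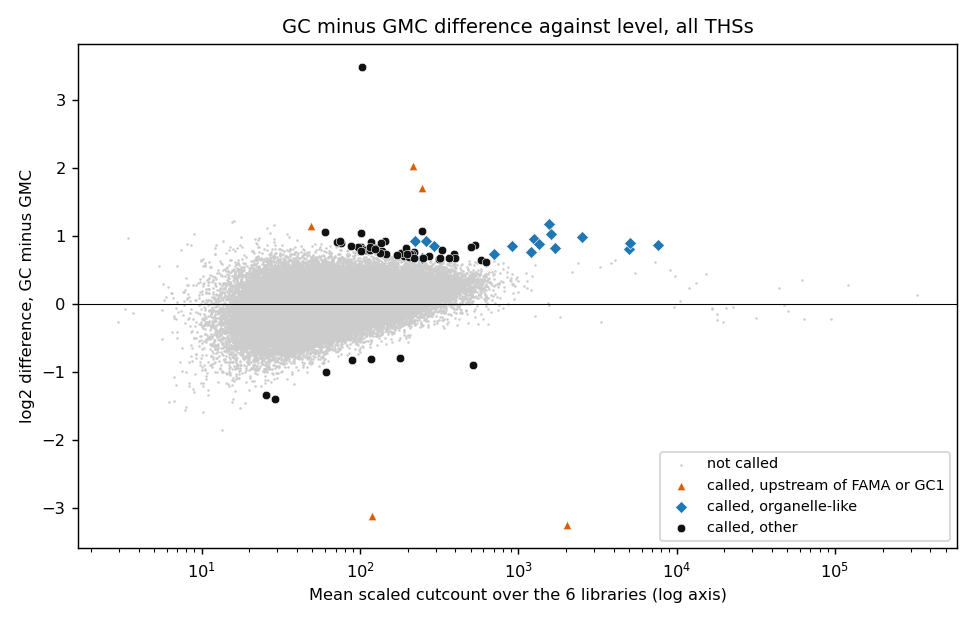
Each point is 1 of the 65351 THSs, with its mean scaled cutcount over the 6 libraries on a log axis and its log2 difference, GC minus GMC, on the vertical axis. Of the 76 called THSs, 5 lie upstream of FAMA or GC1 (triangles) and 16 resemble organelle DNA (diamonds). The point at the top is THS_21012, with a log2 difference of 3.49.

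Of the 5 called THSs with the largest log2 differences in either direction, 4 lay at the promoters that drive the tag. A THS overlapping the 3000 bp upstream of FAMA or GC1 is covered by reads from the native gene and from the promoter copy in the transgene, which cannot be told apart, so these 6 THSs were kept apart from the rest. Short sequences from 2 of them are given on the plus strand of TAIR10.1, outside annotated exons, because they belong to the differences that held under every setting tried. Capitals mark the W-box words TTGACC and TTGACT and the GATA word AGATAA on either strand, which occur in 31.8% and 23.2% of all THSs. A match describes the letters only.
THS_33855, chr3:8720376-8720532, FAMA upstream: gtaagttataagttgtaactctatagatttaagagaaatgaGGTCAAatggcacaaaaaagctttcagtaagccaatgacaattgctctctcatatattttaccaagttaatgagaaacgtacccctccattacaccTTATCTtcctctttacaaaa
THS_05423, chr1:8026365-8026664, GC1 upstream: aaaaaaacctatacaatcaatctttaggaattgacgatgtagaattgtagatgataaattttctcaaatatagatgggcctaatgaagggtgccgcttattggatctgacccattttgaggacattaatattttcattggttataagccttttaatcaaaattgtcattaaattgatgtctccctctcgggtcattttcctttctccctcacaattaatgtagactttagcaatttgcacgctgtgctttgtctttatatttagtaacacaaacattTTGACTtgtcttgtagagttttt

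THS_33854, a site of 2218 bp whose midpoint lies at -694 bp from the FAMA start, had 415, 398 and 337 scaled cutcounts in GC libraries and 3460, 3764 and 3712 in GMC libraries. Its log2 difference was -3.25 (95% interval -3.53 to -2.97, limma adjusted p = 3.05e-37). THS_33855, farther upstream and printed above, had 20.6, 25.7 and 25.3 in GC libraries and 208, 229 and 204 in GMC libraries, a log2 difference of -3.11 (limma adjusted p = 5.10e-24). In GC libraries both sites were near the levels of the other lines, with means of 341 in Proto, 286 in MMC and 445 in M for THS_33854.

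Upstream of GC1, which encodes a gibberellin-regulated family protein, THS_05423 had 357, 336 and 347 scaled cutcounts in GC libraries and 81.2, 98.5 and 72.3 in GMC libraries, a log2 difference of 2.04 (limma adjusted p = 1.90e-17). Its midpoint was nearer to the start of AT1G22680, at -140 bp, than to that of GC1, at -630 bp. The midpoints of THS_05421 and THS_05422, described below, lie in an untranslated exon of AT1G22680. THS_05424, which covers the start of GC1, had 431, 354 and 354 in GC libraries and 107, 112 and 127 in GMC libraries, a log2 difference of 1.71 (limma adjusted p = 7.34e-14). The groups lay apart at both sites. THS_05422 also passed, with 62.8, 50.3 and 85.9 in GC libraries and 18.5, 50.9 and 24.4 in GMC libraries (log2 difference 1.16, limma adjusted p = 0.0315), but there the groups overlapped. THS_05421, the farthest from GC1, did not pass, with a log2 difference of -0.28 (95% interval -0.85 to 0.28). The nearest THSs beyond these regions were not called, with log2 differences of -0.38 at THS_33856 and 0.26 at THS_33853 around FAMA, and of -0.09 at THS_05420 and -0.02 at THS_05425 around GC1.

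**Figure D2:**
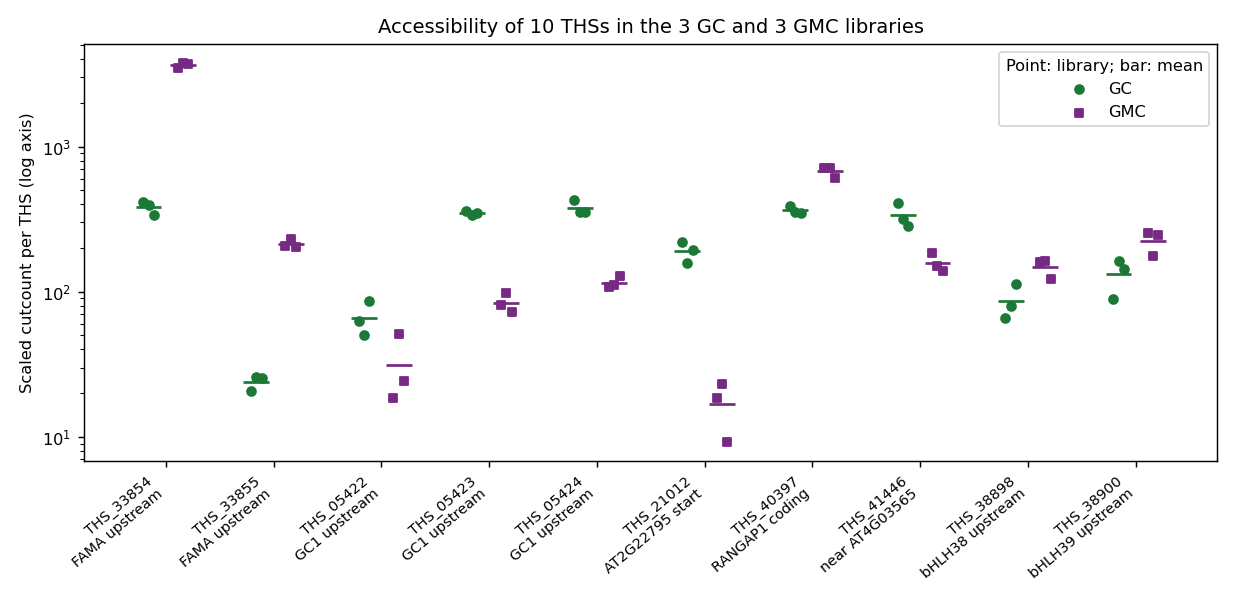
Scaled cutcounts, on a log axis, of 10 THSs in the 3 GC libraries (circles, left) and the 3 GMC libraries (squares, right), with bars at the means. GC and GMC points lie apart at every site shown other than THS_05422.

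Outside both promoters, 71 THSs were called, 64 higher and 7 lower in GC, with absolute log2 differences between 0.63 and 3.49. Of these, 1 kept its call under every alternative in which it was tested: THS_21012, of 238 bp, at the start of AT2G22795, which encodes an uncharacterized protein. It had 219, 158 and 193 scaled cutcounts in GC libraries and 18.5, 23.0 and 9.17 in GMC libraries, a log2 difference of 3.49 (limma adjusted p = 1.34e-22). The GMC line was the state that stood apart, as the means were 216 in Proto, 253 in MMC and 267 in M. Neighbouring sites did not share the gap. THS_21011, inside the gene, had a log2 difference of -0.07, and THS_21013 and THS_21014, upstream, had 0.03 and 0.32. The part of THS_21012 outside the annotated exon is printed because it carries the largest difference away from the tag promoters. Capitals again mark W-box words, which occur there at 2 places.
THS_21012, chr2:9699945-9700106: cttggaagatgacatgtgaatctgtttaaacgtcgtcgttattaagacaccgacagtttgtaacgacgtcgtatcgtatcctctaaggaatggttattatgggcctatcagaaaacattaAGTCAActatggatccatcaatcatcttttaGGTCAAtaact

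Next among the lower sites by adjusted p was THS_40397 (chromosome 3, 23325088 to 23325462) in the coding exon of RANGAP1 (AT3G63130), which encodes RAN GTPase ACTIVATING PROTEIN 1. The WPP domain of nuclear tagging fusions of this kind was taken from that protein. The site had 390, 354 and 347 scaled cutcounts in GC libraries and 714, 709 and 604 in GMC libraries, a log2 difference of -0.89 (limma adjusted p = 0.000214). Its level differed among lines carrying the fusion, with means of 176 in Proto, 596 in MMC and 397 in M. THS_40396, at the start of the same gene, was not called, with 173, 184 and 199 in GC libraries and 135, 169 and 150 in GMC libraries. The part of the transgene in this difference was not tested.

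Of the 64 higher calls outside the promoters, 16 held a stretch of at least 50 bp with at least 90% identity to the chloroplast or mitochondrial genome, 11 to the chloroplast and 5 to the mitochondrion. Such nuclear copies of organelle DNA can share reads with the organelle genome itself, so their levels are uncertain. In all, 56 THSs were of this kind. Their median log2 difference was 0.56, against 0.01 over all THSs. This comparison is not matched for level, as 47 of the 56 lay in the highest of 10 bins of THSs by mean level. In that bin the median log2 difference was 0.20. The log2 difference was positive at 54 of the 56, against 51.3% of all THSs. The groups overlapped at 33 of the 56, against 55707 of all 65351 THSs. One of them is printed, with the stretch of 69 bp identical to the chloroplast genome in capitals.
THS_07811, chr1:11752629-11752843, upstream of ABCI7: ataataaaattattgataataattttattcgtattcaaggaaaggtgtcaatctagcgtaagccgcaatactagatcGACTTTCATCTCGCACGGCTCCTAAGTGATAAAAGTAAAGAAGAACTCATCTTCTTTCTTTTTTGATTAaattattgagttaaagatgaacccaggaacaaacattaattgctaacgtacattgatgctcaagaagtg

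THS_07811 had 3180, 1936 and 1451 scaled cutcounts in GC libraries and 1024, 975 and 766 in GMC libraries, a log2 difference of 1.18 (limma adjusted p = 7.23e-05). THS_48761 (near AT4G35690), THS_18772 (near AT2G05160) and THS_32252 (in AT3G18282) had log2 differences of 1.03, 0.99 and 0.96, and each also matched the chloroplast. THS_10763 in an intron of ACP2, an acyl carrier protein gene, had 441, 206 and 244 in GC libraries and 165, 121 and 160 in GMC libraries, with a match to the chloroplast. THS_16338 in an intron of EXL6, an extracellular lipase gene, had 421, 339 and 268 in GC libraries and 211, 158 and 166 in GMC libraries, with a match to the mitochondrion. At all 6 of these sites GC replicate 1 was the highest of the GC and GMC libraries. As a share of all cutcounts, organelle-like THSs took 13.5%, 12.4% and 8.72% in GC libraries and 10.6%, 9.85% and 9.62% in GMC libraries, which overlap (two-sided exact permutation test, p = 0.4). Without these THSs in the fit, 40 THSs were called, 34 higher and 6 lower, a choice made after seeing the data.

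The 48 other higher calls were mostly sites at which GMC was the lowest of the 5 states. GMC had the lowest mean at 46 of the 48, which compares with 29.9% of all THSs, although a low GMC level is in part what led to the call. Proto, MMC and M libraries took no part in the fit. Their means exceeded the GC mean at 40, 41 and 43 of the 48 sites, against 49.1%, 50.1% and 52.8% of all THSs. These shares are not matched for level: the 48 had a median level of 159 scaled cutcounts, against 55.7 over all THSs. The ratio of the 90th to the 10th percentile ran from 5.34 to 25.1 in the Proto, MMC and M libraries. Whether uncalled sites of similar level share this profile was not tested. GC had the highest mean of the 5 states at 3 of the 48, or 6.25%, against 15.7% of all THSs. Relative to GMC, the median log2 ratio was 0.96 in Proto, 1.07 in MMC, 1.17 in M and 0.79 in GC.

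**Figure D3:**
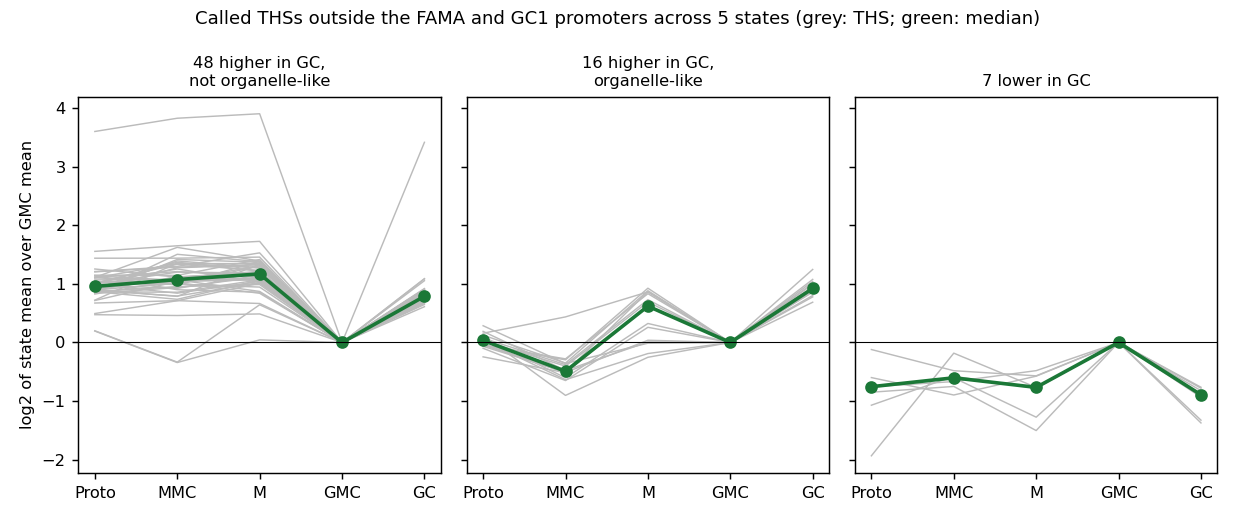
The log2 ratio of each state mean to the GMC mean, for the called THSs outside the FAMA and GC1 promoters, in 3 sets. In the 48 sites of the left panel the medians are 0.96 in Proto, 1.07 in MMC, 1.17 in M and 0.79 in GC, while the 16 organelle-like sites are low in MMC and the 7 lower sites peak in GMC.

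THS_41446, between genes near AT4G03565, was among the 3 exceptions and kept its call under 18 of 20 alternatives. It had 407, 315 and 285 scaled cutcounts in GC libraries and 185, 149 and 139 in GMC libraries, a log2 difference of 1.08 (limma adjusted p = 2.06e-05), and means of 181 in Proto, 125 in MMC and 247 in M. THS_19759, at the start of AT2G17705, which is annotated as a methionine-S-oxide reductase, had 79.6, 72.5 and 92.0 in GC libraries and 29.5, 42.7 and 43.8 in GMC libraries (log2 difference 1.07). THS_36023, near AT3G45252, had 153, 87.7 and 176 in GC libraries and 76.3, 53.4 and 64.2 in GMC libraries (log2 difference 1.05). Both sites had higher means in MMC and M than in GC. THS_08581, just upstream of the uncharacterized gene AT1G36320, and THS_62315, upstream of the bHLH family gene AT5G56960, had log2 differences of 0.94 and 0.93, with no overlap between groups. Of the 6 fits that left out 1 library, each passed in 2, while THS_19759 passed in 3 and THS_36023 in 4.

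A pair of higher calls lay at RUP2 (AT5G23730), which encodes a WD40 repeat protein that acts as a repressor in the UV-B response; RUP2 was chosen after its values were seen. THS_55302, just upstream of its start, had 110, 81.9 and 89.0 scaled cutcounts in GC libraries and 35.7, 52.5 and 61.1 in GMC libraries (log2 difference 0.92, limma adjusted p = 0.0372). THS_55301, farther upstream, had 260, 275 and 272 in GC libraries and 156, 169 and 175 in GMC libraries (log2 difference 0.68, limma adjusted p = 0.0430). Of the 6 fits that left out 1 library, THS_55302 passed in 3 and THS_55301 in 1. Within the gene, THS_55303 and THS_55304 had log2 differences of 0.22 and 0.24 and did not pass. A stretch of THS_55301 is printed for its words, with GAGAGAGA, the GA repeat, and ACCTACC, an AC element bound by MYB factors, in capitals on either strand. These words occur in 7.55% and 1.75% of all THSs.
THS_55301, chr5:8003741-8003860: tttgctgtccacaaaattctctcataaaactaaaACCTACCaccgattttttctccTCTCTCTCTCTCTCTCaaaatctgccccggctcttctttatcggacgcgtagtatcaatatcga

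The 7 THSs lower in GC outside the promoters had log2 differences between -1.40 and -0.79, and a GMC level above that of GC is what led to each call. GMC had the highest mean of the 5 states at all 7 (29.4% of all THSs), and GC had the lowest at 4 (13.2% of all THSs). They include a tandem pair of genes for related bHLH factors, bHLH38 (AT3G56970) and bHLH39 (AT3G56980), which act in the response to iron deficiency. THS_38898, upstream of bHLH38, had 65.6, 79.5 and 113 scaled cutcounts in GC libraries and 160, 163 and 122 in GMC libraries (log2 difference -0.80, limma adjusted p = 0.0401). THS_38900, upstream of bHLH39, had 89.0, 164 and 143 in GC libraries and 252, 175 and 248 in GMC libraries (log2 difference -0.79, limma adjusted p = 0.0357). Groups lay apart at both, though the highest GC and lowest GMC libraries were close, and of the 6 fits that left out 1 library THS_38898 passed in 2 and THS_38900 in 3. THS_38899, between them, was level, with a log2 difference of 0.00. A stretch upstream of bHLH38 is shown with its CACGTG word, the G-box form of the E-box, in capitals. CACGTG occurs in 8.91% of all THSs, and here it overlaps ACGTGTC, a word of the abscisic acid response element.
THS_38898, chr3:21085304-21085423: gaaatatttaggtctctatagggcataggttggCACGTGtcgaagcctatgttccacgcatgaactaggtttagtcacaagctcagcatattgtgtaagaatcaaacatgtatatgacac

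The other lower calls were at weaker sites than these. THS_48539, upstream of AT4G34950, a major facilitator superfamily gene, had 16.9, 21.1 and 9.20 scaled cutcounts in GC libraries and 43.1, 28.7 and 55.0 in GMC libraries (log2 difference -1.40). THS_10185, upstream of TSA1, which encodes TSK-ASSOCIATING PROTEIN 1, had 12.2, 18.7 and 11.5 in GC libraries and 45.5, 33.7 and 31.6 in GMC libraries (log2 difference -1.34). THS_07973, at a MATE efflux family gene (AT1G33100), and THS_16966, upstream of the kelch repeat gene AT1G77880, had log2 differences of -1.0 and -0.82. All 4 had limma adjusted p-values between 0.0273 and 0.0433, and each passed in 1 or 2 of the 6 fits that left out 1 library.

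In 8 lists of stomatal genes, 353 THSs lay between 1000 bp upstream of a gene start and the gene end. The 4 of them that were called were all in the FAMA and GC1 promoters, and at the 0.116% called over all THSs a list of this size would be near 0 calls in any case. Their remaining log2 differences lay between -0.74 and 0.70, with a median of 0.01 that equals the median of 0.01 over all THSs. At an unadjusted p below 0.05, the tag promoters included, 27 of the 353 were higher and 15 lower in GC, against 6.63% and 3.61% of all THSs (10.2% in either direction).

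Among the stomatal bHLH and MYB regulators, 13 THSs were assigned and none was called apart from THS_33854. MUTE, the bHLH that commits a meristemoid to become a GMC, had 319, 291 and 324 scaled cutcounts at THS_29396 in GC libraries and 420, 323 and 354 in GMC libraries (log2 difference -0.22, 95% interval -0.53 to 0.08). SCRM had 143, 144 and 140 in GC libraries and 116, 138 and 156 in GMC libraries at THS_34596 (log2 difference 0.07, 95% interval -0.27 to 0.41). At FLP and MYB88 the log2 differences were 0.06 (95% interval -0.56 to 0.69) and 0.27 (95% interval -0.14 to 0.68). FLP was among the weakest of these sites, with 15.3 to 33.9 scaled cutcounts in GC libraries and 17.3 to 26.3 in GMC libraries.

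In the list for symmetric division and the cell cycle, none of 29 THSs was called (limma). Of these, 2 were higher and 1 lower at an unadjusted p below 0.05, against 6.63% and 3.61% of all THSs. RBR1, the retinoblastoma-related repressor of cell cycle entry, had 368, 283 and 383 scaled cutcounts in GC libraries and 282, 282 and 254 in GMC libraries (log2 difference 0.33, 95% interval 0.02 to 0.64, limma adjusted p = 0.452). CYCA2;3, an A-type cyclin that acts with CDKB1;1, had a log2 difference of -0.21 (95% interval -0.61 to 0.18). CDKB1;1 and CYCD7;1 had no THS within this range.

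Guard cell maturation genes had 36 THSs, of which the 3 called lie upstream of GC1. MYB60, a guard cell MYB factor involved in stomatal opening, had 108, 149 and 129 scaled cutcounts in GC libraries and 142, 156 and 118 in GMC libraries (log2 difference -0.11, 95% interval -0.46 to 0.24). SCAP1, a Dof factor required for guard cell maturation, had 50.6, 38.6 and 51.4 in GC libraries and 61.6, 64.9 and 57.0 in GMC libraries. Its groups did not overlap, yet its log2 difference of -0.39 (95% interval -0.82 to 0.05) did not pass. TGG1, a myrosinase abundant in guard cells, had no THS in range.

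The list of ion channels, pumps and transporters had the most THSs along with the abscisic acid list, 85 in each, and none was called in either (limma). For transport, 9 were higher and 2 lower at an unadjusted p below 0.05, against 6.63% and 3.61% of all THSs. The median log2 difference of the transport list was 0.08, against 0.01 over all THSs. KAT1, an inward potassium channel, had 121, 159 and 131 scaled cutcounts in GC libraries and 77.6, 101 and 110 in GMC libraries at THS_59431. Among the strongest sites of the core genes outside the tag promoters this was the largest difference, at 0.51 (95% interval 0.15 to 0.87, limma adjusted p = 0.257), and it did not pass. GORK, the outward potassium channel, had a log2 difference of 0.09 (95% interval -0.28 to 0.46), and SLAC1, the slow anion channel, had no THS in range. For abscisic acid signalling, 6 were higher and 3 lower at an unadjusted p below 0.05. OST1, the kinase that activates SLAC1, had 85.3, 87.7 and 79.8 in GC libraries and 71.4, 64.9 and 88.6 in GMC libraries (log2 difference 0.18, 95% interval -0.21 to 0.57).

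**Figure D4:**
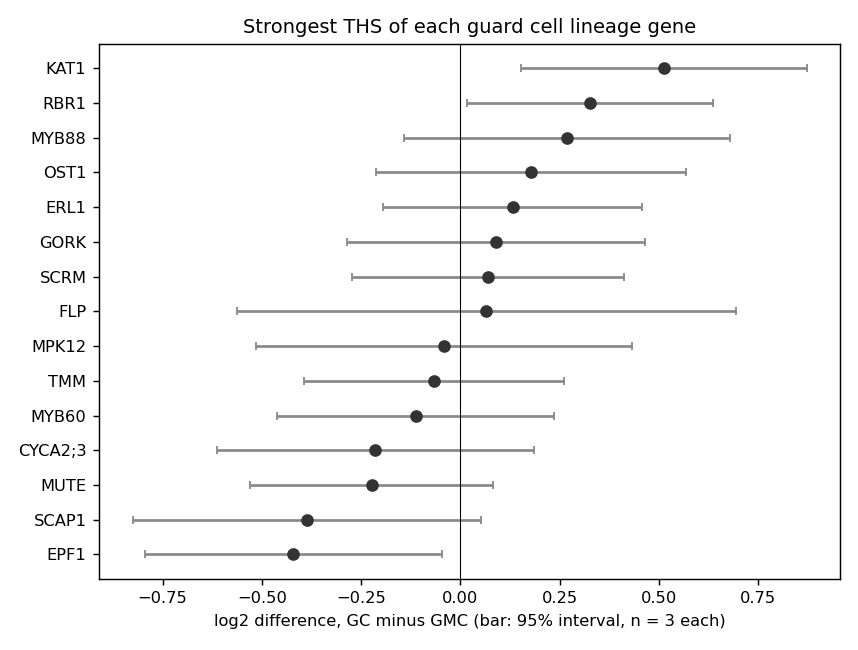
The log2 difference, GC minus GMC, at the THS with the most cutcounts of each of 15 guard cell lineage genes outside the tag promoters, with 95% intervals (3 libraries in each group). KAT1 is the highest at 0.51 and EPF1 the lowest at -0.42, and none passed the test.

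Carbon dioxide and blue light genes had 47 THSs, with no call (limma). Of these, 1 was higher and 4 lower at an unadjusted p below 0.05, against 6.63% and 3.61% of all THSs. MPK12, a kinase of the carbon dioxide response, had a log2 difference of -0.04 (95% interval -0.52 to 0.43), and HT1 had no THS in range. The early lineage and patterning list had 49 THSs with no call, and 6 were higher and 2 lower at an unadjusted p below 0.05. EPF1, a secreted peptide that enforces spacing of stomata, had 70.3, 81.9 and 81.3 scaled cutcounts in GC libraries and 107, 95.2 and 111 in GMC libraries, apart from each other but not past the test (log2 difference -0.42, limma adjusted p = 0.411). Its receptors gave -0.07 (95% interval -0.39 to 0.26) at TMM and 0.13 (95% interval -0.19 to 0.46) at ERL1. The GATA and chloroplast regulators had 10 THSs, with no call and 1 lower at an unadjusted p below 0.05.

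Markers of the labelled cell types were read as the accessibility of their own regions. Of 9 guard cell markers, 5 had a THS. Their summed level was 1785 to 1849 in GC libraries and 1130 to 1260 in GMC libraries, but without the GC1 promoter it was 984 to 1109 in GC libraries and 923 to 999 in GMC libraries, which overlap. For the GMC markers the sum without the FAMA promoter was 156 to 178 in GC libraries and 132 to 185 in GMC libraries. With the tag promoters left out, then, neither marker list set the states apart.

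Markers of other cells gave calls at 2 of 43 THSs, both at RBCS1A, against 0.116% of all THSs. RBCS1A encodes a Rubisco small subunit and marks mesophyll. THS_13655 had 687, 641 and 808 scaled cutcounts in GC libraries and 425, 505 and 432 in GMC libraries (log2 difference 0.65), and THS_13656 had 364, 373 and 420 in GC libraries and 238, 258 and 232 in GMC libraries (log2 difference 0.67). Of the 6 fits that left out 1 library, they passed in 2 and 1. Their Proto, MMC and M means were all above those of GC. The summed mesophyll markers were 1908 to 2139 in GC libraries and 1578 to 1605 in GMC libraries, and no marker THS of that list was at 0. These sums include both called RBCS1A sites. Over all 13 THSs of the mesophyll list the median log2 difference was 0.07, and 53.8% were positive, against 51.3% of all THSs. The part of mesophyll markers in the calls was not tested. Trichome, root hair, phloem, endodermis and epidermis markers had no call (limma). At an unadjusted p below 0.05, 4 of the 43 THSs were higher and 3 lower, against 6.63% and 3.61% of all THSs. Epidermis sums were 1163 to 1176 in GC libraries and 1008 to 1093 in GMC libraries, and in the other 4 lists the groups overlapped.

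Calls were concentrated at strong sites. When THSs were put into 10 bins by mean level, 45 of the 76 calls fell in the highest bin. The median log2 difference ran from -0.15 in the lowest bin to 0.20 in the highest, so sites in general differed with their level in the direction of most calls. The percentile ratio given above moved the same way, and its part in the calls was not tested.

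**Figure D5:**
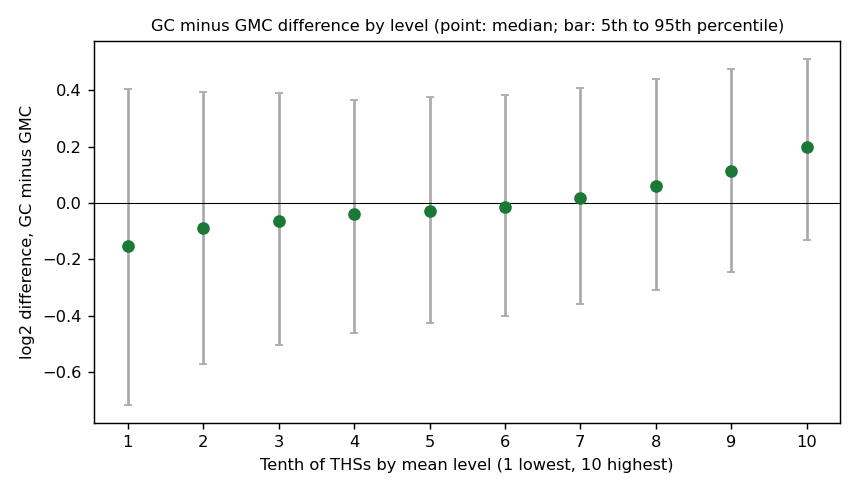
Median log2 difference, GC minus GMC, in 10 bins of THSs by mean scaled cutcount, with bars from the 5th to the 95th percentile of THSs. The median is -0.15 in the lowest bin and 0.20 in the highest.

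The called THSs outside the promoters were longer and higher than most, with a median length of 313 bp against 230 bp and a median level of 198 against 55.7 scaled cutcounts over all THSs. Their median GC content was 35.3%, against 34.7%. Of the 64 higher calls, 28.1% had their midpoint within 400 bp upstream of a gene start, 28.1% in a gene and 43.8% elsewhere, against 22.7%, 38.7% and 38.6% of all THSs. For the 48 higher calls that were not organelle-like, these shares were 35.4%, 25.0% and 39.6%. W-box words were in 46.9% of the higher calls, GATA words in 35.9% and CACGTG in 17.2%, against 31.8%, 23.2% and 8.91% of all THSs, and longer sites hold more words of any kind. In the central 150 bp the shares were 25.0%, 17.2% and 10.9% of higher calls, against 21.1%, 13.7% and 5.86% of all THSs.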

How the data were processed

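Nuclei of GC and GMC lines were profiled by ATAC-seq after streptavidin pull-down (3 libraries each). According to the study's methods and the labels, the authors aligned reads with Bowtie2 (TAIR10) and set those in centromeres aside. Cut positions were fragment ends. MACS2 peaks, joined with open regions from earlier work, made the list of THSs. The signal values deposited by the authors are cutcounts after division by 1 DESeq2 size factor per library. Every value of the 6 libraries was a whole multiple of 1 step (within 0.01 steps), although in 3 of them the lowest value was 2 steps, so the step rests on the spacing of the values. One value column of the table matched no library and was not used.

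Signal values raised by 1 were put on the log2 scale and fitted in R 4.3.3 with limma 3.58.1 (lmFit, eBayes with trend and robust, a mean each for GC and GMC), with no filter on low values and Benjamini-Hochberg adjustment over 65351 THSs (threshold 0.05). Fold changes on this scale understate changes at low sites. Pseudocounts, filters, scalings, a replicate block, covariates, fits with all 16 libraries and fits leaving out each library were tried as alternatives. Replicates are separate samples by their labels, which do not say that they were grown separately, so p-values measure only the spread between these samples, which may be technical.

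THS positions are 1-based on TAIR10. Genes and sequence came from the RefSeq annotation of TAIR10.1, which has the same chromosomes, and all 127 list genes were found in it. RefSeq writes FAMA as FMA. Similarity to organelle genomes was found with blastn 2.17.0. Named THSs were those upstream of FAMA and GC1, the 12 largest called differences in each direction with separate groups, called THSs of list genes, and the strongest THS of each core gene. The comparison, the gene lists and the named-gene rule were chosen with earlier results of these data known. Other steps used Python 3.11.15, and figures matplotlib 3.10.9.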

Additional observations from a re-analysis of the deposited data

How the results depend on the processing

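The count of 76 calls (67 higher, 9 lower in GC) moved with the processing. TMM scaling gave 41 calls (33 higher), scaling by total cutcounts 33 (23 higher), cyclic loess 43 (15 higher, 28 lower) and quantile normalization 34 (18 higher, 16 lower), of which 22 were among the 76. Scaling by total cutcounts moved the median of all THSs to -0.08. eBayes without trend and robust, and a fit of all 16 libraries, each gave 5 calls (3 higher, 2 lower). A threshold of 0.01 left 26 (23 higher, 3 lower) and one of 0.1 gave 243 (207 higher, 36 lower). Total cutcounts as a covariate gave 5 lower calls. Leaving out organelle-like THSs, chosen after seeing the data, gave 40 calls (34 higher). Leaving out each library in turn gave 11 to 837 calls, 7 to 667 of them higher and 3 to 170 lower. The count was 11 without GC replicate 1, 837 without GC replicate 2, 31 without GMC replicate 1 and 16 without GMC replicate 3, and without GC replicate 3 there were 5 lower calls. The cause was not tested. Labels share replicate numbers. Deviations of equal numbers correlated at 0.08, -0.02 and -0.02, and those of unequal numbers at -0.05 to 0.06. The main fit did not pair libraries by number, although this check cannot exclude a shared preparation. With the replicate block there were 58 calls (50 higher, 8 lower). Of 71 calls outside the promoters, 1 (THS_21012) held under every alternative in which it was tested, and 5 held with each library left out. No named log2 difference with a call changed direction. The count-model tests planned as alternatives were not run, since the deposited values are scaled and in 3 of the 6 libraries the value of 1 cutcount could not be read from the lowest values.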

Other observations

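Sites of 4 list genes, chosen after their values were seen, had an unadjusted p below 0.05, as did 10.2% of all THSs, and did not pass the adjusted test. EPF2, a peptide of early lineage patterning, had log2 differences of 0.52 at THS_08204 (limma adjusted p = 0.127) and 0.48 at THS_08202 (limma adjusted p = 0.266), with no overlap between groups. CYCD3;1, a D-type cyclin, had 0.70 at THS_48335 (limma adjusted p = 0.178). PME6, a pectin methylesterase of guard cell walls, had -0.71 at THS_05579 (limma adjusted p = 0.259), and CBC1, a kinase of the carbon dioxide and blue light responses, had -0.74 at THS_28299 (limma adjusted p = 0.392). Groups did not overlap at 14.8% of all THSs.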
